A study of Rattus norvegicus with 15 samples.

Results

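The transcripts described here are those of 9 genes of bone cells, measured in the rat olfactory epithelium: Runx2, Alpl, Sparc, Ibsp, Spp1, Bglap, Dmp1, Acp5 and Ctsk. All probes whose gene name on the array was 1 of these names were taken, which gave 11 probes of 8 genes out of 41012 probes. No probe carried the name Bglap. Probe A_43_P15447, named Bglap2, holds an accession that the RefSeq gene table assigns to Bglap, and it was added as the twelfth probe and outside the name rule, so that 12 probes of 9 genes are reported.

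The olfactory epithelium is the sensory sheet at the back of the nose. It covers the turbinates, thin scrolls of bone and cartilage, and a dissected epithelium may hold cells of the bone beneath it. Bone is laid down by osteoblasts, which secrete collagen and mineral-binding proteins and bring alkaline phosphatase to the matrix. Osteoblasts enclosed in the matrix become osteocytes, and osteoclasts, which descend from the monocyte lineage, dissolve mineral with acid and digest matrix with proteases.

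The animals were 8 Brown Norway rats aged 6 weeks, 4 males (rats 1, 2, 5 and 6) and 4 females (rats 3, 4, 7 and 8). RNA of the epithelium of each nostril, labeled A and B, was put on an array of its own, an Agilent slide with probes for the whole rat genome. Male 1 had nostril A only, which gave 7 male and 8 female arrays. The labels do not say which letter is left and which is right.

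Levels are log2 values of the probe signal divided by the median signal of its array, so that a level of 1 lies 2-fold above that median, and a difference of 1 between arrays is a 2-fold difference. Signals of different probes depend on the probe sequence, so levels were compared between arrays and not between probes. The median signal of an array ran from 57.4 to 83.4 intensity units, and 26233 to 28741 probes were well above background. Olfactory neuron genes were measured in every rat: the mean over the 9 probes of 7 olfactory neuron genes ran from 6.64 to 6.93 over the 8 rats.

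Of the 12 probes, 11 were well above background on at least 11 of the 15 arrays, which is the definition of an expressed transcript used here. The exception was Runx2 probe A_43_P16039, well above background on 3 arrays, and it was not tested. No member probe was saturated on any array. Transcripts of all 9 genes were thus measured in both nostrils of the 7 rats that gave 2 samples. In a bulk sample, fewer bone cells and less RNA per bone cell cannot be told apart.

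Runx2, the transcription factor that commits precursor cells to the osteoblast lineage, had 4 probes, and these did not behave alike. Their sequences are shown because the disagreement lies between probes of 1 gene. Shorter open frames in the others are not marked. In A_44_P259961, the first probe along the chromosome, capitals mark an ATG that opens a frame of 16 codons to the end of the probe:
A_44_P259961: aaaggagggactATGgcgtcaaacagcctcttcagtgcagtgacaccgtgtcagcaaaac
A_44_P146816: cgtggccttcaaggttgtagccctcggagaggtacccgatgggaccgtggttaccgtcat
A_43_P16039: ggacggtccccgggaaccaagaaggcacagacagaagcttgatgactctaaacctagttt
A_44_P356808: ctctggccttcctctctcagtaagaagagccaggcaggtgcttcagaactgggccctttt
In build rn3 the array annotation places them on the plus strand of chromosome 9. A_44_P259961 lies at chr9:11789815-11789874. A_44_P146816 spans chr9:11867912-11877881 and so crosses at least 1 intron. A_43_P16039 spans chr9:11884865-11943270, and A_44_P356808 spans chr9:12016468-12018248. The annotation does not say which exon a probe matches.

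A_44_P259961 had levels of -1.75 (lowest), -1.49 (median) and -0.70 (highest) on the male arrays and of -2.08, -1.78 and -1.08 on the female arrays. A_44_P146816 had -2.45, -1.63 and -1.14 in males and -2.92, -1.91 and -1.77 in females. Both probes were lowest in nostril B of female 4 and highest in nostril A of male 5. A_44_P356808 differed: its level stayed between -1.65 and -1.07 on all 15 arrays, a 1.50-fold span, and nostril A of male 5 was its lowest array. The dim probe A_43_P16039 ran from the floor of -3.32 to -1.62, again with nostril A of male 5 highest. In the relations given further on the gene was represented by A_44_P356808, which a rule on detection and then brightness picked and which behaved unlike the other 3.

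Alpl encodes tissue-nonspecific alkaline phosphatase, an enzyme of mineralizing osteoblasts that is also made in other tissues. Its probe (A_43_P11684, chr5:156511780-156511839, minus strand) had levels of 3.56, 3.99 and 4.61 (lowest, median, highest) in males and 3.57, 4.29 and 4.64 in females. Alpl varied least of the 8 genes other than Runx2, 2.12-fold over the arrays.

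Sparc encodes osteonectin, a calcium- and collagen-binding protein of bone matrix that fibroblasts and endothelial cells make as well. Its probe (A_44_P451357, chr10:40825096-40825155, minus strand) ran from 9.57 over 10.22 to 11.12 in males and from 8.92 over 9.75 to 10.38 in females. The 3 highest values, 11.12 in nostril A and 10.65 in nostril B of male 5 and 10.65 in nostril A of male 2, all came from males. The lowest, 8.92, came from nostril B of female 4.

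Ibsp encodes bone sialoprotein, a mineral-binding matrix protein made mainly by osteoblasts. Its level (A_44_P255216, chr14:6549186-6549245, minus strand) was 7.06, 8.21 and 9.21 (lowest, median, highest) on the male arrays and 6.96, 7.74 and 8.66 on the female arrays, a 4.78-fold span. The groups overlapped over most of their range.

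Spp1 encodes osteopontin, a phosphorylated matrix protein of osteoblasts and osteoclasts that macrophages and epithelia can make too. The mean of its 10 spots (A_44_P491796, chr14:6422382-6422441, minus strand) was 9.08, 9.84 and 10.54 in males and 8.66, 9.69 and 10.01 in females. Spp1, Ibsp and Dmp1 are neighbours on chromosome 14: their probes start at positions 6422382, 6549186 and 6637483, and the probe of Mepe, an osteocyte gene, lies between those of Spp1 and Ibsp at 6529384.

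Bglap encodes osteocalcin, the vitamin K-dependent protein of mature osteoblasts. Its probe (A_43_P15447, chr2:180432419-180432478, minus strand) had the widest span of the 12, 6.05-fold, from 7.89 in nostril B of female 4 to 10.49 in nostril A of male 5. The medians were 9.76 over the male arrays and 9.35 over the female arrays.

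Dmp1 encodes dentin matrix protein 1, a phosphoprotein of osteocytes. Its level (A_42_P636281, chr14:6637483-6637542, minus strand) was 3.86, 4.94 and 5.77 (lowest, median, highest) in males and 3.99, 4.83 and 5.33 in females.

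Acp5 and Ctsk are osteoclast genes. Acp5, tartrate-resistant acid phosphatase, is also found in some macrophages, and its probe (A_42_P553201, with no position in the annotation) had levels of 9.62, 10.24 and 11.03 in males and 8.96, 9.95 and 10.23 in females. Ctsk, cathepsin K, is the protease that cleaves bone collagen, and its probe (A_44_P1006058, chr2:190368355-190368414, plus strand) had levels of 5.57, 6.23 and 7.08 in males and 5.02, 5.99 and 6.35 in females. As for Bglap, the highest array of both was nostril A of male 5 and the lowest nostril B of female 4.

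**Figure D1:**
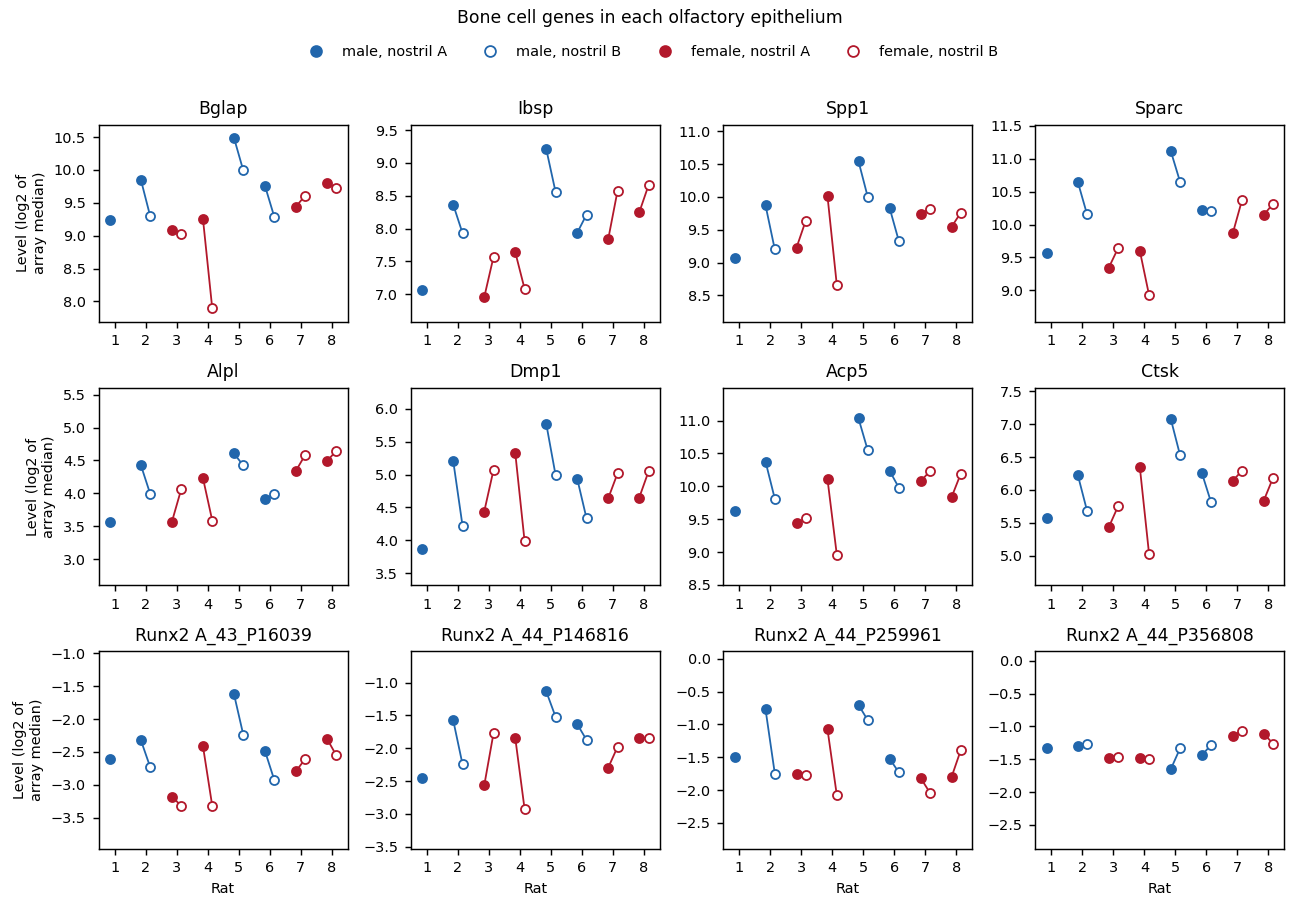
Level of each of the 12 member probes (vertical axis, log2 of the probe signal over the array median, each panel 3 units high) in the 8 rats (horizontal axis); filled circles are nostril A, open circles nostril B, blue males and red females, and a line joins the nostrils of 1 rat. Most probes were highest in nostril A of male 5, at 9.21 for Ibsp, while Runx2 A_44_P356808 stayed between -1.65 and -1.07.

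The nostrils of 1 animal often differed in these transcripts, and usually in 1 direction for most of the genes. In female 4, Spp1 stood at 10.01 in nostril A and 8.66 in nostril B, a 2.55-fold difference. Bglap stood at 9.25 and 7.89, a 2.57-fold difference, Dmp1 differed 2.53-fold, Ctsk 2.51-fold and Acp5 2.22-fold. All 11 tested member probes were higher in nostril A of this rat, against 46.0% of all 27574 tested probes. In 7 of the 11 the difference was above 1, which held for 2.11% of all tested probes.

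Males 2 and 5 had the same direction as female 4, with smaller gaps for the 8 genes other than Runx2, except for Ibsp in male 5, at 0.65 against 0.56 in female 4. In male 2, 10 of 11 probes were higher in nostril A (65.1% of all probes), among them Dmp1 with 5.21 against 4.22 and Ibsp with 8.36 against 7.93. In male 5, 10 of 11 were higher in nostril A (61.0% of all probes), with Ibsp at 9.21 against 8.56. Runx2 A_44_P356808 was the exception in both rats.

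Females 3, 7 and 8 went the other way. In female 7 nostril B was higher for 10 of 11 probes, with Ibsp at 7.84 in A and 8.58 in B, a 1.66-fold difference. Nostril A was higher for 2 of 11 probes in female 3 (49.6% of all probes), for 1 of 11 in female 7 (46.9%) and for 2 of 11 in female 8 (35.4%). The gaps of female 8 were small, and none of its 11 probes differed by more than 0.5. Female 3 is the only rat whose nostrils were hybridized on different slides.

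In male 6 the genes split. Nostril A was higher for Dmp1 by 0.60, Spp1 by 0.51, Bglap by 0.47, Ctsk by 0.45 and Acp5 by 0.26. Sparc and Alpl differed by 0.01 and -0.07, and Ibsp was higher in nostril B (A minus B of -0.28). The same grouping could be seen in female 4, where Ibsp, Alpl and Sparc differed by 0.56, 0.65 and 0.68 and the other 5 genes by 1.15 to 1.36. This grouping was noticed after the values were seen and was not tested.

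**Figure D2:**
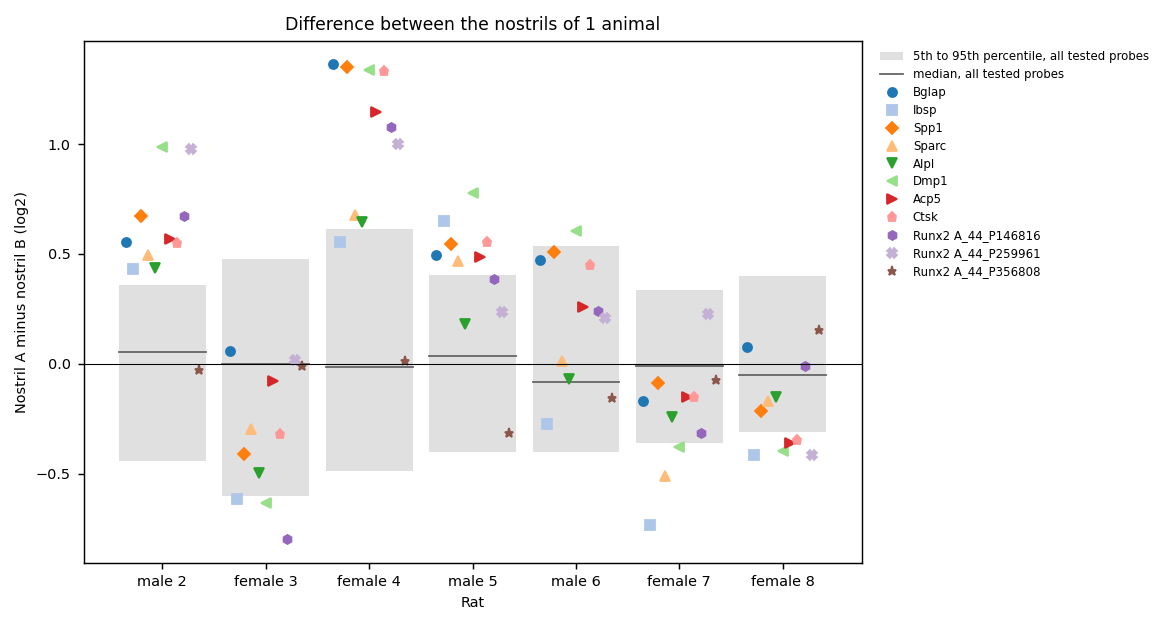
Difference between nostril A and nostril B (vertical axis, log2) for the 11 tested member probes in each of the 7 rats with both nostrils (horizontal axis); the gray band holds the 5th to 95th percentile of all 27574 tested probes and the gray line their median. In female 4 the members lie above 0 with Bglap at 1.36, in female 7 most lie below 0 with Ibsp at -0.73, and Runx2 A_44_P356808 stays near the gray line in most rats.

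No member was called between nostrils A and B as labeled. With rat as a block, limma called 0 of the 11 member probes at an adjusted p of 1% (all probes, 0.0%) and 0 at 5% (all probes, 0.0%). Adjusted p-values ran from 0.781 to 0.959. Bglap came closest, at 0.41 ± 0.15 (A minus B, SE, 7 rats), higher in nostril A in 6 of 7 rats, as was Runx2 A_44_P259961. In limma its adjusted p was 0.781, and it was the only member among the 5.89% of all probes with an unadjusted value under 0.05. The mean difference was 0.34 ± 0.19 for Spp1 and -0.06 ± 0.18 for Ibsp. Without female 4, Bglap stood at 0.25, Spp1 at 0.17 and Ibsp at -0.16.

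Whether the gap between nostrils differed between males and females was tested as an interaction. It was negative for 10 of the 11 members, from -0.81 ± 0.42 (SE, female minus male) for Dmp1 to -0.17 ± 0.32 for Bglap, and 0.19 ± 0.17 for Runx2 A_44_P356808. No member passed at 1% or 5% (all probes, 0.0% and 0.0%) or had an unadjusted p under 0.05 (all probes, 2.36%). Female 4 had the direction of males 2 and 5, and the values depended on it. Without female 4 the interaction was -1.26 for Dmp1, -0.81 for Spp1 and -0.79 for Ctsk, and 9 of the 11 members had an unadjusted p under 0.05, against 5.09% of all probes. The lowest adjusted p in limma was then 0.0694 (Dmp1), followed by 0.115 (Ctsk), so that no member passed 1% or 5%. Without any other single rat, at most 1 member (Ibsp, without male 6) had an unadjusted p under 0.05.

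The size of the gap, whatever its direction, was measured as the standard deviation between the nostrils of a rat over the 7 rats. Its median was 0.40 over the 11 tested member probes and 0.12 over all tested probes, whose 90th percentile was 0.34. Dmp1 had the largest value, 0.56, followed by Spp1 with 0.47, Ctsk with 0.45, Bglap with 0.44 and Acp5 and Ibsp with 0.39 each. Sparc had 0.31 and Alpl 0.26. The 8 genes other than Runx2 thus lay between the percentiles 83.5 and 97.6 of all tested probes. Runx2 A_44_P146816 and A_44_P259961 had 0.43 and 0.40, and A_44_P356808 had 0.11, at percentile 44.3. These are descriptions without a test. Their size and order rested in part on female 4. Without this rat Bglap had 0.26, Acp5 0.26 and Ctsk 0.30, Ibsp with 0.38 came second to Dmp1 with 0.47, and the median of the members was 0.30, with 0.12 over all probes.

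**Figure D3:**
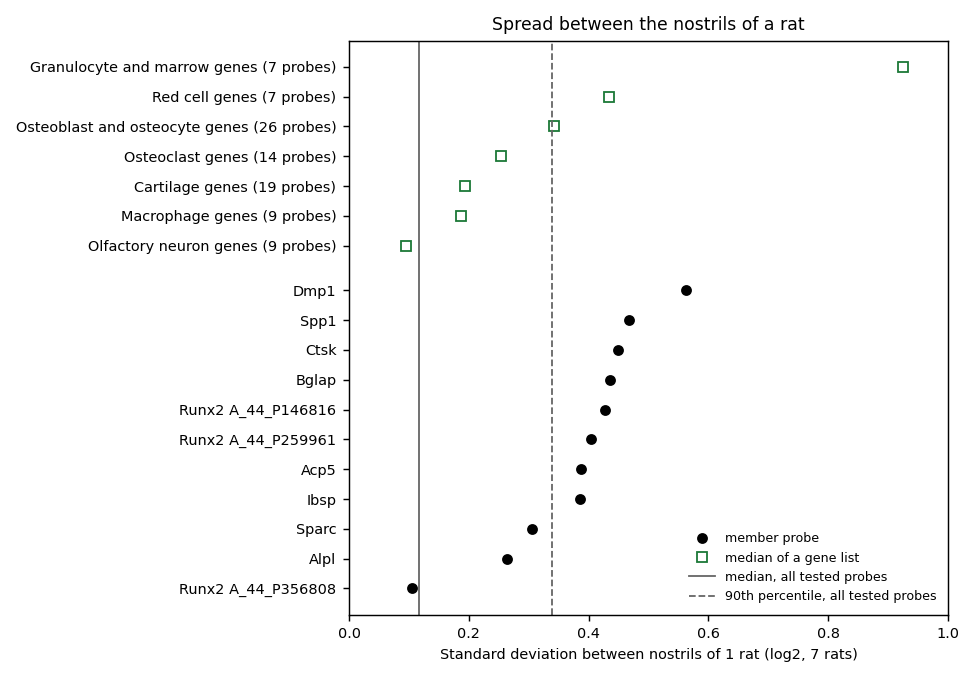
Standard deviation between the nostrils of 1 rat (horizontal axis, log2, 7 rats) for each of the 11 tested member probes (filled circles) and, for 7 gene lists of named cell types, the median over their tested probes (open squares); vertical lines give the median and 90th percentile of all tested probes. Dmp1 (0.56) lies beyond the 90th percentile of 0.34, and the olfactory neuron genes (0.09) lie below the median of 0.12.

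The animals were then set side by side by the mean of their arrays. Ibsp had a rat mean of 8.89 in male 5 and of 7.06 in male 1, a 3.55-fold difference, and Bglap ranged 3.18-fold, Sparc 3.07-fold and Dmp1 2.87-fold over the 8 rats. The range of Dmp1 rested on male 1, the rat with 1 array: without it the range was 1.68-fold. Without male 5 that of Acp5 fell from 2.49-fold to 1.60-fold and that of Ctsk from 2.35-fold to 1.56-fold, and leaving out any other single rat moved no member's range by over 1.5 times. Male 5 had the highest mean of the 8 rats for all genes but Alpl (female 8) and Runx2 A_44_P356808 (female 7). The median range over the 8 rats was 1.23 for the 11 tested member probes and 0.47 for all tested probes.

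Whether rats of 1 sex stood apart by more than their nostrils differed was tested with limma's F-statistic over all 15 arrays. None of the 11 member probes passed at an adjusted p of 1% (all probes, 2.79%), 2 passed at 5% (all probes, 16.1%), and 4 had an unadjusted p under 0.05 (all probes, 37.1%). The 2 were Ibsp (F = 7.15, adjusted p = 0.0318) and Sparc (F = 6.56, adjusted p = 0.0373). Their adjusted p-values ran from 0.0217 to 0.266 and from 0.0296 to 0.283 over the alternatives, with the highest value of each under slide as a block. Over the alternatives 0 to 4 member probes passed 5%: 4 without female 4 (Alpl and Acp5 added), 3 with 75th percentile scaling or normexp (Alpl added), 1 without female 7, and 0 without male 1, male 5 or female 8, with slide as a block, with no filter or a filter on positive and significant signals, with the ratio table or without the trend. Alpl had an adjusted p of 0.0562, and Dmp1, with its wide gap between nostrils, 0.456. Rats on 1 slide can be set side by side: Ibsp had means of 7.06 and 8.15 in males 1 and 2 on slide 1, 8.89 and 8.08 in males 5 and 6 on slide 3, and 8.21 and 8.45 in females 7 and 8 on slide 4. Both nostrils of female 4 and nostril B of female 3 lay on slide 2.

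The sexes were compared on the means of 4 males and 4 females, and the ranges overlapped for all 12 probes. Limma called 0 of the 11 tested member probes at 1% (all probes, 0.0434%) and at 5% (all probes, 0.0724%), with adjusted p-values from 0.286 to 0.905. Runx2 A_44_P259961 was the only member among the 17.1% of all probes with an unadjusted value under 0.05, and its adjusted p in limma was 0.286. Its mean was -1.30 ± 0.35 (SD, n = 4) in males and -1.71 ± 0.16 in females. Ibsp was 8.04 ± 0.75 in males and 7.82 ± 0.60 in females, a difference of -0.22 ± 0.38 (SE, female minus male). Without male 1 this difference was -0.55. Sparc had the largest difference over the 8 rats, -0.49 ± 0.29, and Spp1 differed by -0.07 ± 0.21. The difference of Sparc ran from -0.72 without male 1 to -0.28 without male 5, and without male 5 that of Dmp1 was larger in size, at 0.37, and that of Runx2 A_44_P259961 stood at -0.26. Alpl, Dmp1 and Runx2 A_44_P356808 were higher in females, by 0.13 ± 0.23, 0.13 ± 0.25 and 0.05 ± 0.13. These signs did not hold: without male 1 Alpl stood at -0.03 and Dmp1 at -0.14, without female 7 Runx2 A_44_P356808 stood at -0.02, and with slide as a block Alpl stood at -0.42 and Runx2 A_44_P356808 at -0.18. Ibsp, Spp1 and Ctsk turned to 0.06, 0.15 and 0.02 without male 5, and Spp1 also changed sign, near 0, without female 4. For 10 of the 11 probes the difference was smaller than 2 SEs.

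How closely the members moved together was measured against Ibsp over the 8 rat means, with each gene represented by 1 probe and 8 relations run. For 7 of the 8 genes Pearson's r was between 0.79 (Dmp1) and 0.93 (Sparc), with adjusted p from 0.00437 to 0.00918 by a two-sided exact permutation test. Of the other 27563 tested probes, 4.91% had an r with Ibsp at least as high as that of Dmp1, and 3.17% had one at or below its negative. Adjusted over all 16 relations planned, those of the nostril differences included, 6 of the 7 stayed under 1%, and Dmp1 had an exact adjusted p of 0.0161. The unadjusted p was 0.000546 for Spp1 and 0.00804 for Dmp1 in this exact test. Spearman's rho was 0.98 for Alpl (exact p = 0.000397, adjusted 0.00317) and 0.76 for Acp5 (exact p = 0.0368, adjusted 0.0420), and the other 5 of the 7 lay between these. By rho only Alpl and Spp1 (exact adjusted p = 0.00893) passed 1%. Runx2, through A_44_P356808, had an r of 0.27 (exact p = 0.511, adjusted 0.511) and a rho of 0.14 (exact p = 0.752, adjusted 0.752). The value depended on the probe: r was 0.89 for A_44_P146816 and 0.48 for A_44_P259961 (exact p = 0.00337 and 0.237, unadjusted), both tried after the values were seen. The Ibsp means lay in 2 stretches, 3 rats from 7.06 to 7.37 and 5 rats from 8.08 to 8.89. The 3 low rats (1, 3 and 4) were hybridized on slides 1 and 2. The 5 others were male 2 on slide 1 and rats 5 to 8 on slides 3 and 4. The permutations did not keep rats within a slide. Without male 1 and female 3, the 2 rats farthest from the Ibsp median, r over the other 6 was between 0.80 and 0.99 for the 7 genes and 0.16 for Runx2 A_44_P356808. None of the 7 passed 1% there (exact adjusted p from 0.0333 to 0.102), nor with levels centered within each sex (0.0139 to 0.0317). No slide held enough rats to give a value within a slide.

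The differences between nostrils fell into 2 separate groups for Ibsp, 3 rats from 0.43 to 0.65 and 4 rats from -0.73 to -0.28, so no correlation is given over them. In the 3 rats with more Ibsp in nostril A (2, 4 and 5), Bglap, Spp1, Sparc, Alpl, Dmp1, Acp5 and Ctsk were all higher in A as well. In females 3, 7 and 8, with more Ibsp in nostril B, so were Spp1, Sparc, Alpl, Dmp1, Acp5 and Ctsk, while Bglap differed by 0.06, -0.17 and 0.08. Male 6 also had more Ibsp in nostril B, but Dmp1, Spp1, Bglap, Ctsk and Acp5 were higher in A there, as given above.

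**Figure D4:**
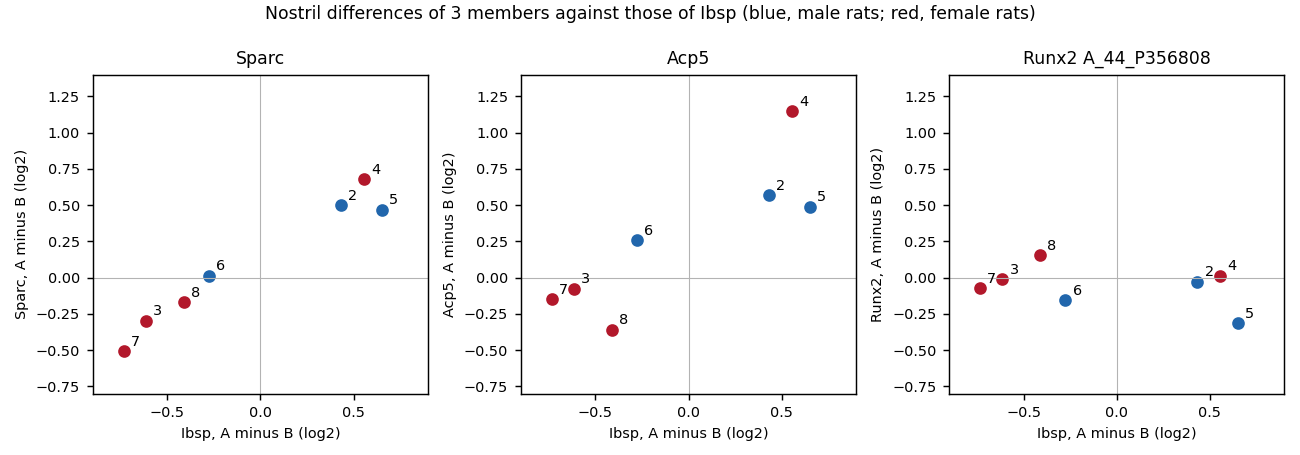
Nostril A minus nostril B (log2) of Sparc, Acp5 and Runx2 A_44_P356808 (vertical axes) against that of Ibsp (horizontal axes) in the 7 rats with both nostrils, numbered and colored by sex. Where Ibsp stood at 0.56 in female 4, Sparc stood at 0.68 and Acp5 at 1.15, in male 6 Acp5 stood at 0.26 with Ibsp at -0.28, and Runx2 A_44_P356808 stays between -0.32 and 0.15.

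The genes most like Ibsp were taken from the 25085 probes detected on all 15 arrays, by Pearson's r over the arrays, as a description. The 10 leading probes of other named genes belonged to Fkbp14 (r = 0.97), Col11a2 (0.97), Dap (0.97), Col11a1 (0.97), Smpd3 (0.97), Tmem119 (0.97), Col5a2 (3 probes, 0.96 to 0.97) and Slc13a5 (0.97). Col11a1, Col11a2 and Col5a2 encode chains of fibrillar collagens, and Smpd3 a sphingomyelinase. Nostrils of 1 rat are not independent, and 0.462% of the probes had an r above 0.9, against a median of 0.04. Among the members, r over the 15 arrays was 0.93 for Sparc, 0.89 for Alpl, 0.87 for Acp5, 0.82 for Ctsk, 0.81 for Bglap, 0.76 for Spp1 and 0.69 for Dmp1. It was 0.49 for Runx2 A_44_P259961 and 0.19 for Runx2 A_44_P356808.

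Other genes of bone cells were read from lists of known genes. Of 28 further osteoblast and osteocyte genes, 25 had a probe, 21 were tested with 26 probes, and Sp7, Sost and Fgf23 were not well above background on any array. Sp7 is a defining osteoblast factor and Sost a product of osteocytes. In female 4, 24 of the 26 probes were higher in nostril A (median 0.66), in male 2 it was 25 and in male 5 it was 23. In females 3, 7 and 8 it was 7, 7 and 1. Of all tested probes, 46.0%, 65.1% and 61.0% were higher in A in rats 4, 2 and 5, and 49.6%, 46.9% and 35.4% in females 3, 7 and 8. In male 6, 10 of the 26 were higher in A (median -0.07). There 8 of the 11 member probes were higher in nostril A (median 0.24), against 32.5% of all tested probes (median -0.08). Except in male 6, the median of the list had the sign of the median of the members, running from -0.29 to 0.66. In those rats the median of all tested probes ran from -0.05 to 0.05, and its sign differed only in female 4 (-0.01). The median spread of the list between nostrils was 0.34. Panx3, a channel protein of osteoblasts, had 0.53, Tnfsf11, which encodes the osteoclast-inducing ligand RANKL, 0.44, and Cthrc1 0.38. The probes of Col1a1, a chain of type I collagen, disagreed: A_44_P419137 and A_44_P350521 had spreads of 0.36 each and A_44_P238421 one of 0.05.

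Of 20 further osteoclast genes, 14 had a probe and all 14 were tested. Nostril A was higher for 10, 11 and 13 of them in rats 2, 4 and 5, beside 65.1%, 46.0% and 61.0% of all probes. It was higher for 10 in male 6 (all probes, 32.5%), where the median of the list was 0.13. In females 3, 7 and 8 it was higher for 7, 5 and 2 (all probes, 49.6%, 46.9% and 35.4%). The median spread of these genes between nostrils was 0.25. Mmp9, a matrix metalloproteinase, had a spread of 0.50 and was 1.50 higher in nostril A of female 4. Dcstamp, which osteoclasts need to fuse, had 0.47 and was 1.36 higher there. Calcr, the calcitonin receptor, had 0.37. Car2, the carbonic anhydrase that also serves other tissues, had 0.15.

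In the F-test between rats, the first list had 2 of 26 probes past 1% (Bmp2 and Col1a1 A_44_P238421) and 13 past 5%, and the osteoclast list 2 of 14 past 1% (Car2 and Traf6) and 3 past 5%, beside the 2.79% and 16.1% of all probes. The 2 osteoclast probes past 1% did not rank the rats as most members did. Traf6 was lowest in male 5, at 1.99. It was at least 2.27 in rats 1 to 4 and at most 2.12 in rats 5 to 8. Car2 stood at 5.96 in male 1 and 6.18 in female 4, where Ibsp was low, and at 5.61 in female 8. Alas2, a red cell gene, stood at 8.51, 8.76 and 6.37 there. In female 3 (5.19) and male 5 (6.11) Car2 went with Ibsp. The cause was not tested. Neither list had a probe called between the sexes or between the nostrils. The median difference of females minus males was -0.17 for the osteoblast and osteocyte list and -0.23 for the osteoclast list.

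Lists of marker genes of other cells were read in the same way, by counts and without a test of the list. Of 18 cartilage genes, 14 were tested with 19 probes, and their median spread was 0.19. In female 4, 15 of the 19 were higher in nostril A (median 0.23), against 46.0% of all tested probes. In males 2 and 5 it was 11 and 13, near the 65.1% and 61.0% of all probes. It was 12 in female 7 (median 0.04), where most members were higher in nostril B, 9 in male 6, 5 in female 3 and 7 in female 8. Of all probes, 46.9%, 32.5%, 49.6% and 35.4% were higher in A in these rats. Prg4 had 0.41, Acan 0.31, Comp 0.19 and the 2 probes of Col9a1 0.19 and 0.48, and Comp, Cnmd and Matn1 passed 1% between rats. Of 11 macrophage genes, 7 were tested with 9 probes, with a median spread of 0.19. In each of males 2 and 5 and female 4, 7 of the 9 were higher in nostril A (65.1%, 61.0% and 46.0% of all probes), with medians of 0.18, 0.21 and 0.42. It was 4 in female 3, 6 in male 6 and 4 in female 7. In female 8, where most members were higher in nostril B, 8 of the 9 were higher in A. Cd68 had 0.33 and was 0.87 higher in nostril A of female 4, Mrc1 had 0.22 and Adgre1 0.19, and no probe passed. The 2 probes of Cd14 had spreads of 0.30 and 0.33 and were higher in nostril B in female 4 (A minus B of -0.73 and -0.68) and in male 2 (-0.59 and -0.79). The mean level of the macrophage list ran from 3.80 to 4.26 in male rats and from 4.00 to 4.05 in female rats.

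Of 10 red cell genes, 6 were tested with 7 probes, and 0 of these had an unadjusted p under 0.05 in limma for the nostrils as labeled. Their median spread between nostrils was 0.43, close to the 0.40 of the bone cell genes, with 0.77 for Ahsp and 0.60 for Slc4a1. Alas2, Slc4a1, Hbb and Ahsp ranged over 4.60, 3.89, 3.29 and 3.06 between rats, and Alas2, Epb42 and Hbb passed 1% between rats. The 2 probes of Rhag ranged over 1.24 and 1.16. They were higher in females, by 0.45 and 0.34, while the other tested probes of the list were lower. The mean of the list ran from 3.23 to 4.89 in males and from 2.41 to 4.51 in females. Granulocyte and marrow genes (7 of 11 tested, 7 probes) had a median spread between nostrils of 0.92, above that of the bone cell genes, with a value above 1 for Camp, 0.86 for S100a8, 0.81 for S100a9 and 0.14 for Prtn3. The mean of that list ran from 0.41 to 1.09 in males and from -0.34 to 0.90 in females, and no probe passed between rats. In female 4, where bone cell genes were higher in nostril A, 0 of 7 granulocyte probes and 2 of 7 red cell probes, both of Rhag, were. In males 2 and 5, where bone cell genes were also higher in A, 7 of 7 granulocyte probes (medians 1.51 and 1.71) and 5 of 7 red cell probes were higher in A. The red cell probes higher in B there were those of Rhag. In female 7, where bone cell genes were higher in nostril B, all 7 granulocyte and all 7 red cell probes were higher in A. In male 6 it was 6 granulocyte and 3 red cell probes, in female 3 it was 5 and 1, and in female 8 it was 4 and 2. Of all probes, 46.0% were higher in A in female 4, 65.1% and 61.0% in males 2 and 5, and 46.9% in female 7. In male 6, female 3 and female 8 it was 32.5%, 49.6% and 35.4% of all probes. The part of macrophages, cartilage, blood and marrow cells in the bone cell values was not tested.

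The 9 probes of olfactory neuron genes had a median spread of 0.09, with 0.21 for Cnga2, 0.11 for Stoml3, 0.08 for Cnga4 and 0.08, 0.09 and 0.17 for the 3 probes of Gnal. Nostril A was higher for 9 of 9 in male 2 (median 0.15), 8 in male 5 (0.09) and 0 in male 6 (-0.22) and female 8 (-0.16), and the median was -0.01 in female 4. Of all probes, 65.1%, 61.0%, 32.5% and 35.4% were higher in A in males 2, 5 and 6 and female 8. The widest range over rats among these 4 genes was 0.52, for Gnal A_44_P137560, and no probe of the list passed 1% in any comparison. None of the 7 lists had a probe called between sexes or nostrils.

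**Figure D5:**
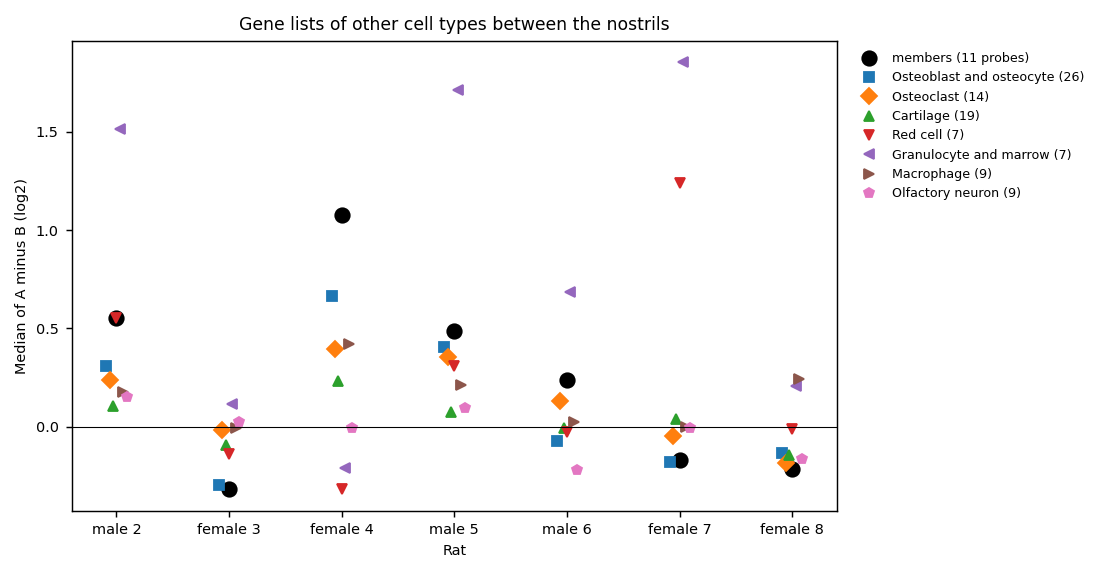
Median of nostril A minus nostril B (vertical axis, log2) for the 11 tested member probes (black circles) and for 7 lists of cell type genes, with the number of probes in brackets, in the 7 rats with both nostrils (horizontal axis). In female 4 the members stood at 1.08, the osteoblast and osteocyte genes at 0.66, the macrophage genes at 0.42, the osteoclast genes at 0.40, the cartilage genes at 0.23, the granulocyte genes at -0.21, the red cell genes at -0.32 and the olfactory neuron genes at -0.01.

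Runx2 is known to bind DNA at sites that hold the letters AACCACA, and the upstream sequences of the members were searched for this motif. The RefSeq promoter table (build GRCr8) held 11 starts of the 9 genes, and AACCACA was sought on both strands in the 250 bases before each start. It was found at 2 of the 11, and at 4.59% of all 33469 starts in the table. The 2 windows that hold it are printed, and capitals mark the motif, which begins 119 bases before the start in Bglap and 77 bases before it at the first of 2 starts of Runx2:
Bglap, chr2:176137319-176137568, minus strand: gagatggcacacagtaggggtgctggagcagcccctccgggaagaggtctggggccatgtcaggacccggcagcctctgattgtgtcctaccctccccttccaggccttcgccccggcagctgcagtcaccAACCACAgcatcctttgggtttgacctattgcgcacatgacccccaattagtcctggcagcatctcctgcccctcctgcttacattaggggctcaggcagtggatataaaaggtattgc
Runx2, chr9:23664808-23665057, plus strand: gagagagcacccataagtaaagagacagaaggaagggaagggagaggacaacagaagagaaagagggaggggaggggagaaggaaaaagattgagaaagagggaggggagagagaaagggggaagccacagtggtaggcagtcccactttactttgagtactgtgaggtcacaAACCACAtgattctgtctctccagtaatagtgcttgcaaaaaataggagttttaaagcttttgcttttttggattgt
A match describes the letters of these windows only. The second start of Runx2 and those of Ibsp, Spp1, Sparc, Alpl, Dmp1, Ctsk and Acp5 held no match in this window.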

How the data were processed

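Gene expression was measured on 15 one-color Agilent arrays of 8 rats. The authors extracted the deposited intensities with Feature Extraction 9.5.1.1, which subtracts background and corrects spatial trends within an array, and did not scale them between arrays. A second deposited table holds ratio values. It was set against the scanner files for the 19072 probes brighter than the array median on every array. Of these values, 99.95% came within 2% of the signal over the array median over the probe median. Dimmer probes, those of Runx2 among them, were not checked. The ratio table served as an alternative.

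Spots flagged as non-uniform or as outliers (61 to 175 per array) were left out. The intensities were averaged per probe, divided by the array median, floored at 0.1 of it and turned into log2 values. The floor was -3.32. Depth has no counterpart on arrays, and the number of animals limits the precision. Probes well above background on at least 7 arrays were tested with limma 3.58.1 in R 4.3.3 (lmFit, eBayes with a trend, two-sided, Benjamini-Hochberg over all of them, 1% as in the study). The sexes were compared over rat means, nostrils A and B with rat as a block (the labels give both nostrils of a rat 1 number), and rats of 1 sex by an F-statistic. The deviations of the 2 nostrils of a rat from the mean of its sex correlated at -0.11 to 0.47 over tested probes. In the F-test over 15 arrays the error was the spread between the 2 nostrils of a rat, to which male 1 added nothing. Its p-values do not measure the spread between animals in general.

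The fits were tested on simulated data. Named were all member probes, the 10 probes most like Ibsp, and of each list the 4 genes detected on most arrays with the widest range over rats, and any called. Some further genes of the lists were named besides, Rhag, Ngp, Ctsg and Cebpe among them. Gene names are those of the array annotation (build rn3), and placeholders were skipped among the genes like Ibsp unless RefSeq named them. The members and the 7 lists (osteoblast and osteocyte, osteoclast, cartilage, red cell, granulocyte and marrow, macrophage, olfactory neuron) were chosen with earlier results of these data known. A relation of the nostril differences to Ibsp had been planned and was run, but is not given, since these fell into 2 groups. That was decided after its values were seen. Alternatives were other scalings, a normexp background with quantile normalization, other floors and filters, the ratio table, slide as a block and leaving out each rat. The suppliers of the rats were not analysed here.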

Additional observations from a re-analysis of the deposited data

How the results depend on the processing

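No call of a member probe in the 3 comparisons or in the interaction of nostril and sex was gained or lost at 1% under any alternative run: 0 of the 11 tested probes (12 with no filter or a filter on positive and significant signals) passed in each. At 5%, 2 passed between rats, and 0 to 4 under the alternatives. Signs of uncalled differences changed 9 times for the sexes, over 6 probes (Alpl, Dmp1, Ibsp, Spp1, Ctsk and Runx2 A_44_P356808), and 5 times for the nostrils, over 2 probes (Ibsp and Alpl), and carry no direction. Without the replicate block for rat, 0 probes of all those tested differed between nostrils, as with it, while 404 had an unadjusted p under 0.05 against 1623 with it.

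The number of all probes called was less stable. Between the sexes it was 12, and 3 for probes detected on at least 11 arrays, 6 with the ratio table, 1031 with the 15 arrays as independent samples, 21 with rat as a random block, 641 with slide as a block, 20 at 5% and 9 to 10 without 1 rat. Between rats it was 768, and 1305 with scaling to the 75th percentile, 1512 with normexp and quantile normalization, 356 with the ratio table, 1 with slide as a block, 404 without the trend, 4442 at 5%, and 186 (without female 8) to 898 (without female 3) without 1 rat. The causes were not tested.

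Of the relations to Ibsp, 7 passed 1% after adjustment, 7 with 75th percentile scaling, 0 with levels centered within each sex and 0 without the 2 rats farthest from the median of Ibsp. The last 2 alternatives leave fewer orderings to permute, and r of the 7 genes was 0.85 to 0.98 with centered levels and 0.80 to 0.99 without the 2 rats. By Spearman's rho in place of Pearson's r, only Alpl and Spp1 passed 1%. The median spread between nostrils of the members, 0.40, became 0.39 with 75th percentile scaling, 0.35 with normexp and quantile normalization, 0.40 with the ratio table and 0.30 to 0.43 without 1 rat. These settings for the spread, the interaction and spread of single genes without 1 rat, and the ranges over rats without 1 rat, were chosen after seeing the data. Detection as positive and significant signal in place of well above background raised the expressed member probes from 11 to 12. Slides and rats overlap, so slide and animal cannot be fully told apart.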

Other observations

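A probe made from the expressed sequence tag AW141646 (A_44_P132081) starts 142 bases before the Ibsp probe on chromosome 14 and has the opposite orientation in the array annotation. It was detected on all 15 arrays, and its level correlated with that of Ibsp at r = 0.91 over the arrays, as a description.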
